A study of Mus musculus with 6 samples.

Results

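Klf2, S1pr1 and Ccr7 encode a transcription factor and 2 receptors that place lymphocytes in lymphoid organs and let them leave again. The peaks described here are the ATAC-seq peaks of regulatory T cells (Treg cells) whose midpoint lay in one of these gene bodies, or between genes with one of them as the nearest protein-coding gene within 100 kb (RefSeq, mm10). They numbered 57 of 74440 peaks, 27 in the list of cells labelled Bcl11b knockout (KO) and 30 in the list of cells with intact Bcl11b (WT). ATAC-seq marks open DNA by the insertion of sequencing adapters by a transposase. The KO group was Bcl11b f/f Foxp3-IRES-YFP-Cre and the WT group Bcl11b w/w Foxp3-IRES-YFP-Cre, each with 3 samples, on a C57BL/6 background. Both groups therefore carried the YFP and Cre cassette, which is expressed with Foxp3, the lineage factor of Treg cells, so that Cre acts in cells that have expressed Foxp3. CD4+YFP+ cells were sorted from spleen and draining lymph nodes, and 100000 cells were lysed per sample. The labels used here give neither the age of the mice nor the deleted part of Bcl11b, and do not say whether the samples came from separate mice.

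KLF2 is a zinc-finger transcription factor of resting T cells and activates the gene for S1PR1. S1PR1 is the receptor for sphingosine-1-phosphate (S1P), which is abundant in blood and lymph and scarce inside tissue, and it guides T cells out of thymus and lymph nodes. CCR7 is the receptor for the chemokines CCL19 and CCL21 and guides T cells into the T zones of lymph nodes. In resting T cells FOXO1 activates Klf2 and Ccr7, and T cell activation turns this set of genes down.

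Each group had 1 peak list for its 3 samples, so no value below has a spread between replicates, no test was made and the depth per sample is unknown. A shared peak had 1 bp or more in common with a peak of the other genotype, and the rest were KO-only or WT-only. Absence from a list says that no peak was called there, not that the DNA was closed. In these sorted bulk samples, fewer cells with an open site and a less open site in every cell cannot be told apart. The score was 1 for every peak, so the only trace of peak strength was the order of each list. A peak's place is given as its list percentile among the peaks of its chromosome, with 0 for the first and 100 for the last. That the order follows peak strength is inferred: 95.8% of the KO peaks and 96.7% of the WT peaks in the first 10% of the lists were shared, against 44.5% and 29.5% in the last 10%. The lists differ in length, with 36182 KO and 38258 WT peaks, so a different place in them is not a measured change of accessibility. Among markers of other cells, the B cell genes Ms4a1 and Cd79a and the NK receptor gene Ncr1 had 0 peaks in both lists, whereas Ebf1, Pax5, Klrb1c, Klrk1 and Spi1 had shared peaks. The B cell, NK cell and myeloid marker lists summed to 5, 5 and 2 shared peaks, with 3, 3 and 2 KO-only and 2, 2 and 2 WT-only ones. The T and Treg cell markers Cd3e, Cd4, Foxp3, Il2ra and Ctla4 summed to 4 KO-only, 4 WT-only and 19 shared peaks, the specific ones all at Il2ra and Ctla4.

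The Klf2 promoter is shown because a shared peak covers the start of this gene. It is also the one promoter of these genes in the RefSeq table used here. The sequence is the 250 bases before the Klf2 start, chr8:72318812-72319061 on the plus strand of GRCm38.p6, the assembly with the coordinates of mm10. Capitals mark the motif matches found.
Klf2 promoter: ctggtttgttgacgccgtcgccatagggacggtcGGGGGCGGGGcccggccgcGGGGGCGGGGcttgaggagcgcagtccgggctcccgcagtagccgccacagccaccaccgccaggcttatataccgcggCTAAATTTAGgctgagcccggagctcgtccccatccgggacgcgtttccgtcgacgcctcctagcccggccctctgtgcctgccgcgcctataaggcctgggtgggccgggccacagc
The KO peak covers the last 86 of these bases and the WT peak the last 80, and both run on into the gene. Of 8 motifs searched on both strands, 2 were found. The KLF and Sp motif CCNCNCCC matched 4 times on the minus strand, as 2 overlapping matches in each of the runs that start 216 and 197 bases before the gene, and 46.2% of 32536 distinct promoter windows of this length held it. The MEF2 motif, CTA and TAG with 4 bases of any kind between them, which reads the same on both strands, matched once, 118 bases before the gene, and 3.22% of windows held it. These matches lay outside both peaks. GTAAACA for FOXO, CCGGAA for ETS, TGTGGT for RUNX, TGACCA for the BCL11 family, TGANTCA for AP-1 and ATCAAAG for TCF and LEF had 0 matches in this window. They occurred in 3.17%, 12.1%, 14.0%, 11.4%, 6.73% and 3.21% of windows. The GC content was 71.2%, against a median of 52.4% over all windows, and 7.89% of windows were at least as rich.

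Most peaks of Klf2, S1pr1 and Ccr7 were called in both genotypes. Together the genes held 24 shared peaks, beside 3 KO-only and 6 WT-only ones. KO-only peaks made up 11.1% of their KO peaks (exact 95% interval 2.35 to 29.2%), against 24.8% of all KO peaks near a protein-coding gene. WT-only peaks made up 20% of their WT peaks (7.71 to 38.6%), against 28.4% of all WT peaks near such a gene. Both intervals, which cover counting error only, hold the values for all genes. With overlap required for at least 50% of both peaks, the numbers were 6 KO-only, 9 WT-only and 21 shared peaks. Each gene had 1 peak within 1 kb of a gene end in both lists, and this peak was shared at all of them. KO-only and WT-only peaks lay away from the genes, the nearest WT-only one 7.58 kb from Ccr7 and the nearest KO-only one 18.9 kb from it. Gene bodies held 2 of 27 KO peaks (7.41%, 0.910 to 24.3%) and 2 of 30 WT peaks (6.67%, 0.818 to 22.1%), against 59.7% and 60.6% of all KO and WT peaks near protein-coding genes. The genes are short, with 2593 bp for Klf2, 4623 bp for S1pr1 and 10879 bp for Ccr7. The locus map shows the peaks at each gene.

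**Figure D1:**
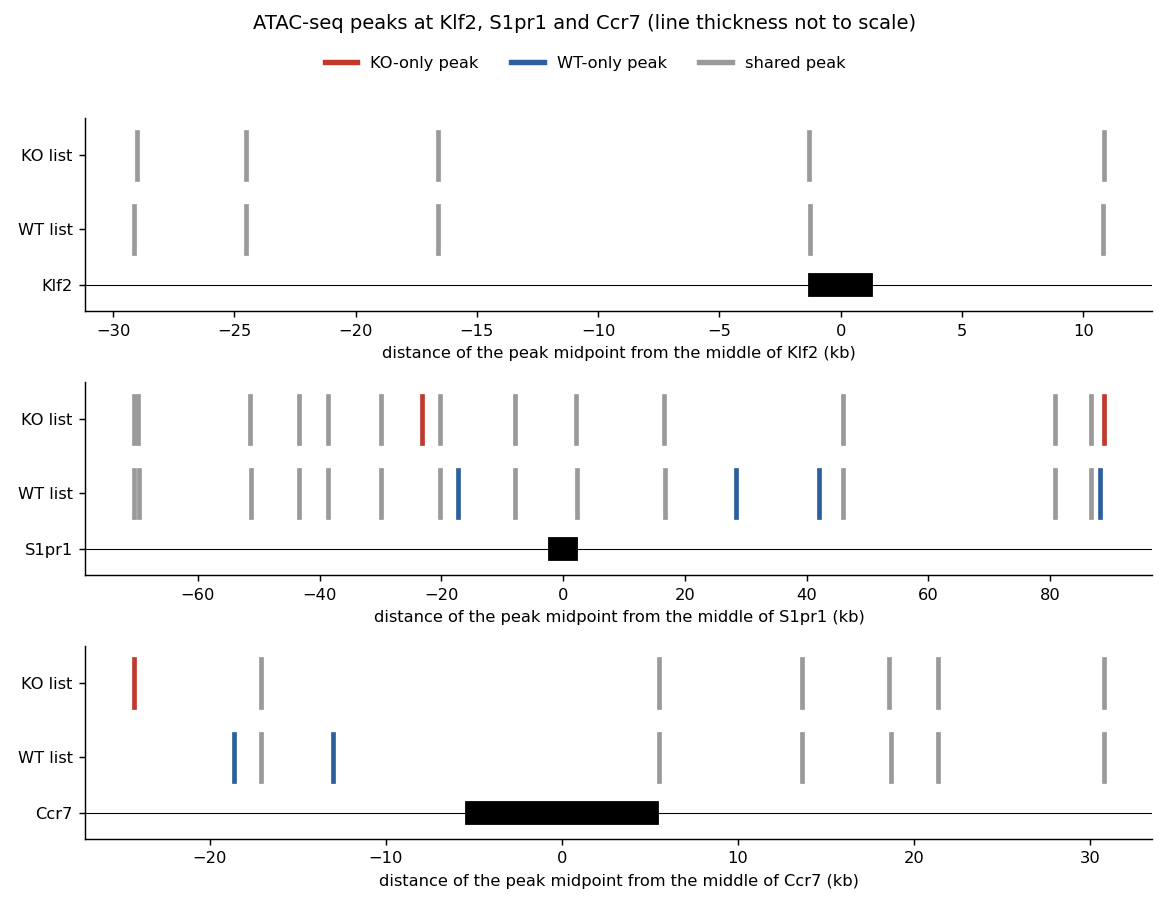
Peaks of the KO list (upper row of each panel) and the WT list (lower row) by the distance of their midpoint from the middle of the gene in kb, with the gene body as a black box. Klf2 has shared peaks alone, while S1pr1 has 2 KO-only and 4 WT-only peaks and Ccr7 1 and 2.

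At Klf2 (gene ID 16598, chromosome 8, 72319062 to 72321654), all 5 peaks of each list were shared, with 0 KO-only and 0 WT-only peaks. Among 1024 genes with at least 5 shared peaks, 62 (6.05%) had neither kind. Klf2 has the fewest shared peaks that this set allows, and 31 other genes had exactly its numbers. The promoter peak, chr8:72318976-72319168 in the KO list and chr8:72318982-72319200 in the WT list, overlapped by 187 bp and was the highest placed of Klf2, at list percentile 12.4 in KO and 10.3 in WT. A peak 9.52 kb above the gene stood at 39.9 in KO and 37.6 in WT. Its midpoint in the WT list lay only 304 bp nearer to Klf2 than to Eps15l1, so its assignment is nearly tied. The other 3 peaks lay below the gene, on the side of its promoter. The one 27.9 kb away stood at 82.7 in KO and 90.6 in WT, with 81 bp of overlap, and was not shared under the 50% rule. The one 23.2 kb away stood at 56.5 in KO and 43.1 in WT. The peak 15.3 kb away, chr8:72303671-72303863 in the KO list and chr8:72303629-72303847 in the WT list, stood near the end of the KO list, at 93.6, against 56.1 in WT. That difference of 37.5 points was the largest in size at these 3 genes by row order within the chromosome. When only shared peaks were ranked it was 27.1 points, smaller in size than the -38.3, -37.7 and -27.7 points at 3 peaks of S1pr1. A place at least 20 points lower in KO was found for 10.4% of all shared peaks near genes and for 2 of the 24 at Klf2, S1pr1 and Ccr7.

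S1pr1 (gene ID 13609, chromosome 3, 115710433 to 115715055) lies in a wide space without protein-coding genes, 585 kb from Olfm3 on the lower side and 173 kb from Dph5 on the upper side. It had 15 KO and 17 WT peaks. Of 21896 protein-coding genes, 79 (0.361%) had at least as many KO peaks and 67 (0.306%) at least as many WT peaks. Per 100 kb of the stretch in which a peak would count for the gene, the sites of either list numbered 9.94 at S1pr1, 11.6 at Klf2 and 13.8 at Ccr7. KO-only peaks numbered 2 at S1pr1, WT-only peaks 4 and shared ones 13. More WT-only than KO-only peaks were found at S1pr1 and Ccr7 among these genes, and at 26.8% of all genes with a peak. At 7695 of these 14515 genes the numbers were equal. The share is therefore not one for genes with as many peaks as S1pr1 and Ccr7.

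The peak in the S1pr1 body, chr3:115714829-115715021 in the KO list and chr3:115714849-115715067 in the WT list, lay at the upper end of the gene, which the WT peak crossed and the KO peak did not reach, and stood at 22.8 in KO and 17.5 in WT. The best placed S1pr1 peak in the KO list lay 43.6 kb above the gene, chr3:115758542-115758734, at 7.79 in KO and 15.1 in WT. In the WT list the best placed peak lay 27.6 kb below the gene, chr3:115682740-115682958, at 14.4 in KO and 9.21 in WT. Both were thus high in both lists.

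Of the KO-only peaks of S1pr1, one lay 20.8 kb below the gene (chr3:115689494-115689686, list percentile 47.5), and the nearest WT peak was 2767 bp away. The other lay 86.5 kb above the gene (chr3:115801488-115801680, 23.9) and was assigned to S1pr1 rather than Dph5 by 3 bp. A WT-only peak (chr3:115800845-115801063, 33.1) lay 424 bp from it, so with peaks up to 500 bp apart counted as shared, 1 KO-only and 3 WT-only peaks remained at S1pr1. The remaining WT-only peaks lay 15.01 kb below the gene (chr3:115695311-115695529, 61.0) and 26.1 kb (chr3:115741000-115741218, 94.7) and 39.7 kb above it (chr3:115754640-115754858, 41.9). Their nearest KO peaks were 2661, 11581 and 3683 bp away. In the first 50% of each list there were 2 KO-only and 2 WT-only peaks at S1pr1, so the surplus of WT-only peaks came from the second part of the WT list.

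The shared peaks of S1pr1 differed in place in both directions. On the lower side, 3 stood at least 20 points higher in the KO list, which was found for 5.67% of all shared peaks near genes. These were the peak 41.1 kb below the gene (chr3:115669270-115669462 in the KO list), at 17.4 in KO and 47.1 in WT, the one 17.9 kb below (chr3:115692457-115692649), at 28.6 and 57.8, and the one 5.68 kb below (chr3:115704689-115704881), at 34.5 and 54.9. By the number in the peak names instead of the row order, these 3 differences were -20.9, -20.1 and -12.8 points instead of -29.7, -29.2 and -20.4. In the order of the whole list they were -28.9, -27.6 and -18.9 points. When only shared peaks were ranked they were larger in size, at -38.3, -37.7 and -27.7 points. In the same stretch, the peak 67.4 kb below the gene stood lower in the KO list, at 61.4 in KO and 38.2 in WT. Over the 13 shared peaks, 5 stood lower and 8 higher in the KO list, while 61.9% of all shared peaks near genes stood lower there. Against 2.49 points over all shared peaks near genes, the median difference (KO minus WT) at S1pr1 was -3.41 points. It was -0.36 by the number in the peak names, -1.13 in the order of the whole list and -8.01 when only shared peaks were ranked. In that last ranking the median over all shared peaks near genes was 0.62 points.

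Ccr7 (gene ID 12775, chromosome 11, 99144199 to 99155077) had 6 shared peaks, 1 KO-only peak and 2 WT-only ones. All of these peaks had their midpoint outside the gene body. The gene-end peak, chr11:99155076-99155268 in the KO list and chr11:99155038-99155256 in the WT list, straddled the upper end of the gene and stood at 34.5 in KO and 15.2 in WT. Above it lay shared peaks at 8.19 kb (18.2 in KO, 13.6 in WT), 13.3 kb (49.0 and 31.98), 15.9 kb (21.9 and 8.20) and 25.4 kb (95.7 and 80.99). The sixth shared peak lay 11.6 kb below the gene, at 64.2 in KO and 57.4 in WT.

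Thus each of the 6 shared peaks of Ccr7 stood lower in the KO list, by 4.60 to 19.2 points with a median of 14.2. The direction was the same for all 6 by the number in the peak names, in the whole list and among shared peaks only, with medians between 12.9 and 13.4. Of 222 genes with 6 shared peaks, 10.8% had every one lower in the KO list. Of all shared peaks near genes, 61.9% stood lower there, with a median difference of 2.49 points. When only shared peaks were ranked, the median was 13.2 points at Ccr7 and 0.62 over all shared peaks near genes. The KO-only peak lay 18.9 kb below the gene (chr11:99125222-99125414, 71.7), and the WT-only peaks lay 13.2 kb (chr11:99130882-99131100, 79.8) and 7.58 kb below it (chr11:99136514-99136732, 71.8). All 3 stood in the second part of their lists, and on the upper side of Ccr7 every peak was shared.

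**Figure D2:**
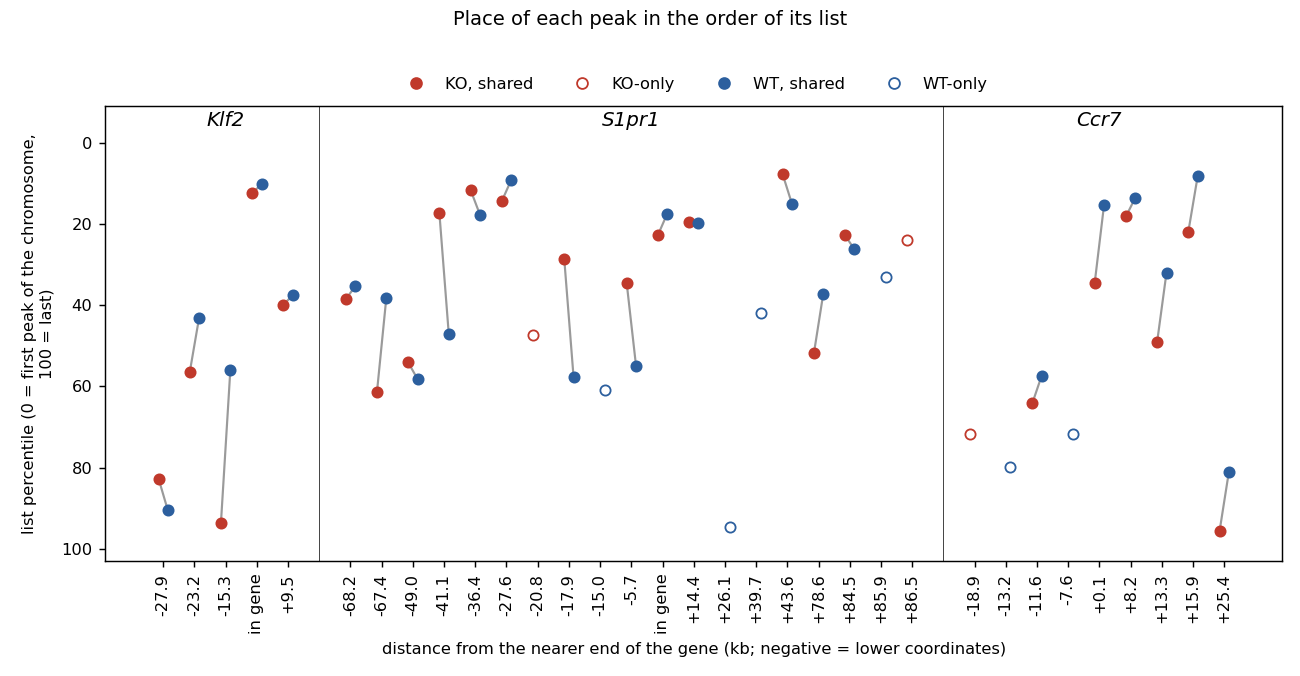
List percentile of every peak (y axis, 0 at the top for the first peak of the chromosome) by distance from the nearer gene end in kb, with KO peaks to the left of their WT partners and open circles for KO-only and WT-only peaks. The KO points of all 6 shared peaks of Ccr7 lie below their WT points, while those of S1pr1 lie on both sides.

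Over all 24 shared peaks of Klf2, S1pr1 and Ccr7, 15 (62.5%) stood lower and 9 higher in the KO list. Their median difference was 3.86 points. Of all shared peaks near genes, 61.9% stood lower in the KO list, with a median difference of 2.49 points. At least 10 points lower in KO stood 8 of the 24, against 26.1% of all shared peaks near genes. At least 10 points higher stood 3 of the 24, against 13.3%. The partners lay close together, with midpoints at most 132 bp apart and a median overlap of 177 bp, near the 175 bp over all shared peaks. The plot of place differences sets the genes beside all shared peaks.

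**Figure D3:**
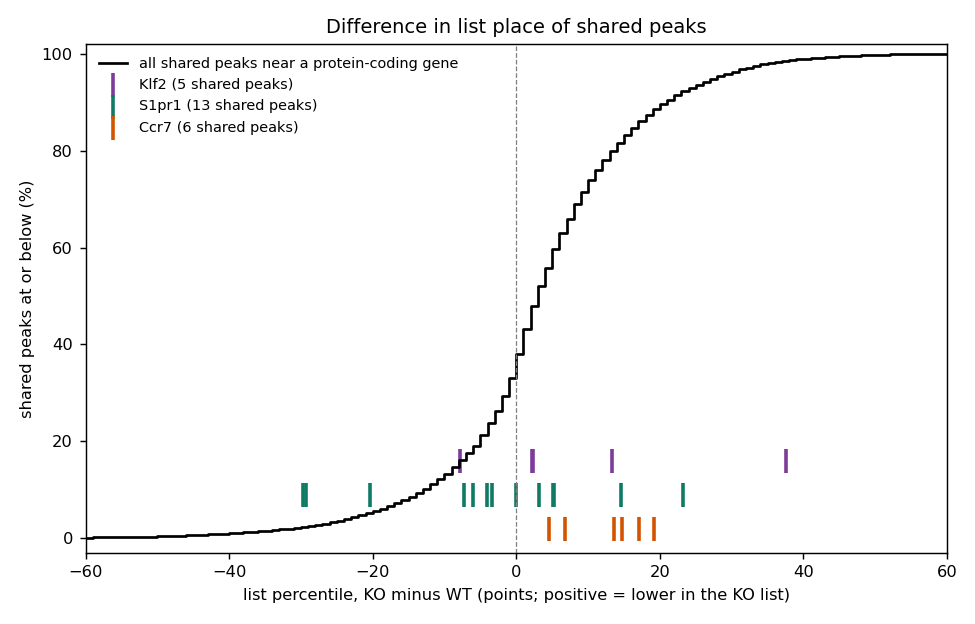
Cumulative share of all shared peaks near protein-coding genes (y axis, %) by list percentile in KO minus WT (x axis, points), with a tick for each shared peak of Klf2, S1pr1 and Ccr7. The Ccr7 ticks lie between 4.60 and 19.2, and the S1pr1 ticks between -29.7 and 23.2.

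The borders of the assignment set which peaks count. The next KO peak below Klf2 lay 39.7 kb away, nearer to Ap1m1, and the next above it 22.3 kb away, in Eps15l1. At S1pr1 the outermost lower KO peak lay 68.2 kb away and the next one outside 114 kb away, beyond the 100 kb limit. Above S1pr1 the next KO peak outside lay 100.8 kb away, nearer to Dph5. At Ccr7 the next KO peaks outside lay 28.0 kb below, nearer to Tns4, and 34.3 kb above, nearer to Smarce1. All of these outside peaks were shared. The neighbours differed among themselves: Ap1m1 had 1 KO-only peak, 2 WT-only peaks and 4 shared ones, Eps15l1 0, 2 and 4, Olfm3 1, 0 and 0, Dph5 1, 2 and 3, Tns4 0, 0 and 3, and Smarce1 1, 0 and 3.

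The other homing and egress genes were taken from a list of 38, of which 34 had a peak. Their peaks were 33 KO-only, 36 WT-only and 93 shared ones. KO-only peaks made up 26.2% of their KO peaks (18.8 to 34.8%) and WT-only peaks 27.9% of their WT peaks (20.4 to 36.5%), against the 24.8% and 28.4% of all genes. KO-only peaks were more numerous at 6 genes and WT-only peaks at 12 of the 34, against 20.2% and 26.8% of all genes with a peak. The total difference between KO-only and WT-only peaks turned to 15 against 11 in the first 50% of each list and to 37 against 35 when the nearest gene end decided the assignment. The median place difference of their shared peaks was 1.79 points, against 2.49 over all shared peaks near genes. When only shared peaks were ranked, its sign turned, to -1.52 points against 0.62 over all shared peaks near genes.

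Among genes of the S1P pathway, Cd69, whose product pulls S1PR1 from the cell surface, had 2 KO-only peaks, 2 WT-only peaks and 7 shared ones. Grk2, a kinase that desensitises S1PR1, had 2, 0 and 2. S1pr4 and Spns2, which encode another S1P receptor and an S1P exporter, had 0 peaks. Among homing genes, Cxcr5, the chemokine receptor for B cell follicles, had 0, 2 and 5. Rac2, a GTPase of leukocyte migration, had 4, 2 and 3. Of the regulators, Foxo1 had 4 KO-only peaks, 4 WT-only peaks and 9 shared ones, and Klf4, which encodes a relative of KLF2, 3, 0 and 4. Il7r, the interleukin-7 receptor gene and a FOXO1 target, had 2 shared peaks alone.

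**Figure D4:**
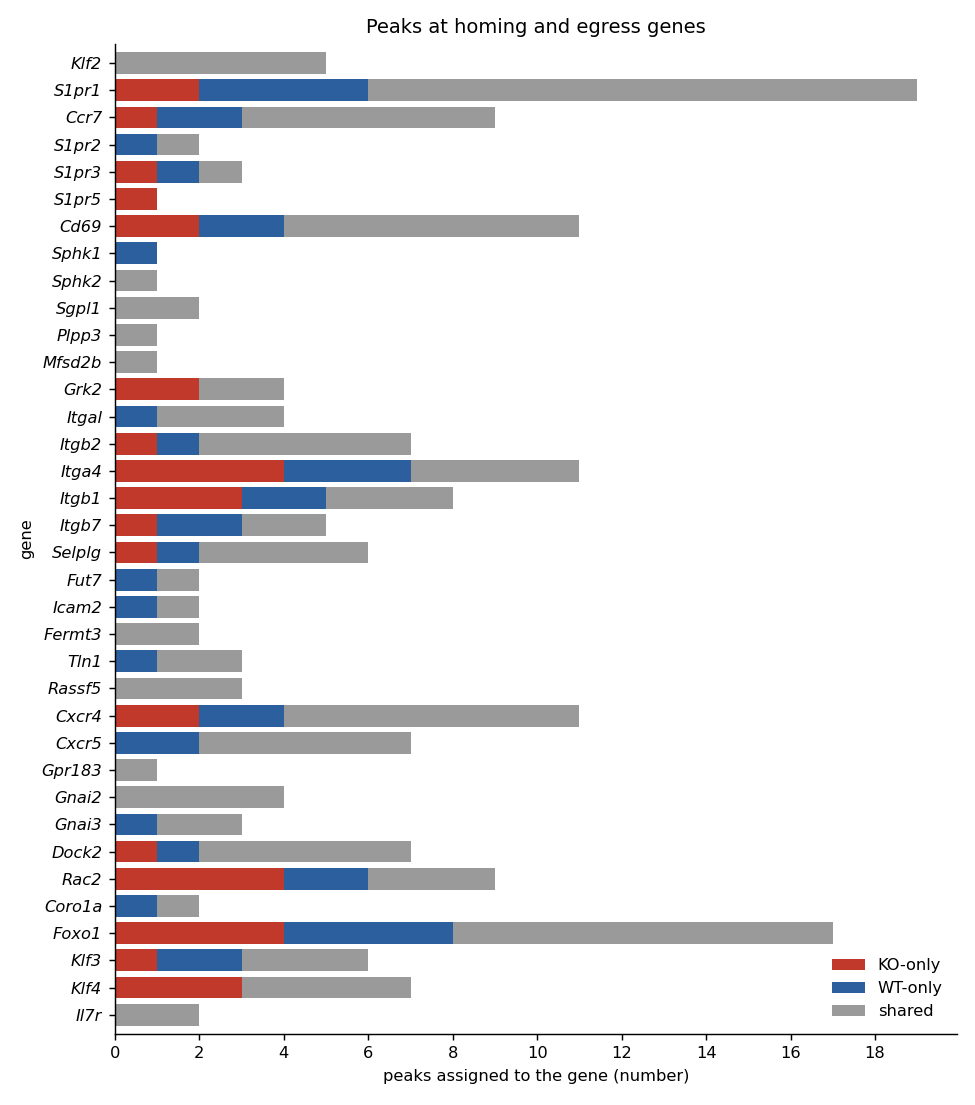
Number of KO-only, WT-only and shared peaks (x axis) at Klf2, S1pr1, Ccr7 and other homing and egress genes with a peak. S1pr1 has 19 sites, Foxo1 17, and Klf2 shows 5 shared peaks alone.

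Genes of related roles were set beside these. Tcf7, Lef1 and Satb1, factors of naive T cells, had 27 shared peaks with 6 KO-only and 8 WT-only ones, with KO-only peaks at 18.2% of KO peaks (6.98 to 35.5%). The 12 effector chemokine receptor genes had 22 shared peaks with 13 KO-only and 9 WT-only ones. KO-only peaks made up 36.1% of their KO peaks (20.8 to 53.8%). Of the 13 KO-only peaks, 5 lay at Ccr3, which had 1 WT-only and 0 shared peaks. KO-only peaks were more numerous at 5 of the 12 genes and WT-only peaks at 3, against 20.2% and 26.8% of all genes with a peak. WT-only peaks made up 29.0% of WT peaks at the receptor genes and 22.9% at Tcf7, Lef1 and Satb1, against 28.4% over all genes. Both KO-only intervals hold the 24.8% over all genes. These intervals overlap that of Klf2, S1pr1 and Ccr7, and the differences were not tested.

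The genes of most like pattern were found by the summed differences in the numbers of KO-only, WT-only and shared peaks, over the 2 lists. For Klf2 31 other genes had the same numbers, and Eapp, Abca1 and Ppil4 came nearest in median place difference, at 2.33, 1.90 and 3.22 points against 2.29 at Klf2. With 50% reciprocal overlap the Klf2 median was 7.84 points, over 4 shared peaks. For Ccr7 17 genes had the same numbers, and Fgf13, Tlr1 and Lmo4 came nearest, at 14.2, 15.02 and 15.1 points against 14.2. No gene had the numbers of S1pr1. Ankrd11 (2, 4 and 12), Rgs3 (2, 3 and 13) and Cblb (2, 4 and 14) differed by 1 peak, with median place differences of -1.77, 4.95 and 14.9 points.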

How the data were processed

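The submitters' processing notes give build mm10 and name HOMER 4.10.1, HISAT2 2.1.0, cutadapt 1.12, Trim Galore 0.4.2, SAMtools 1.3, deepTools and FastQC, with no role for any of them. Not given in the sources used here are the peak threshold, any shift of reads and how replicates were joined. The deposited files hold peak starts and ends and a score that is 1 in every row. Nearly all peaks are 193 bp (KO) or 219 bp (WT) wide.

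Overlap, assignment and exact Clopper-Pearson intervals were computed in Python 3.11.15 (scipy 1.17.1, pandas 2.3.3, numpy 2.4.6), with matplotlib 3.10.9 for figures. Checked on 800 simulated peaks, overlap and assignment gave 0 differences from bedtools 2.31.1. The simulated gene bodies lay close together without overlap. The check therefore does not cover overlapping gene bodies and says little of the 100 kb limit. Genes came from RefSeq GRCm38.p6, which gave no exons, and strand through the promoter table for Klf2 alone. Where gene bodies overlapped, a peak went to the gene with the nearer end.

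The members, lists and settings were chosen with earlier results of these data known. Named are the 3 genes, their neighbours and nearest patterns, Foxo1, Il7r, Cd69, and list genes with a KO-only minus WT-only difference of at least 2. S1pr4, Spns2, Ccr3 and the marker genes lie outside that rule. A gene that the rule names is left out of the text and the plot of counts, though not of the list's sums. Alternatives were other overlap rules, the first 50% of each list, other assignments and other rankings. Ranking among shared peaks and a common width of 200 bp were chosen after the data were seen.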

Additional observations from a re-analysis of the deposited data

How the results depend on the processing

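No paired analysis was possible because each group has 1 peak list for its 3 samples. For the same reason no replicate could be left out, and counting depth cannot be judged. At Klf2, S1pr1 and Ccr7, KO-only minus WT-only peaks numbered -3. The difference was 0 in the first 50% of each list (2 KO-only, 2 WT-only) and -1 within 10 kb (0 KO-only, 1 WT-only, 6 shared). KO-only peaks numbered 6 with 50% reciprocal overlap. Shared peaks numbered 11, beside 2 KO-only and 5 WT-only, when genes of every kind competed. At the other homing and egress genes the difference, -3, turned to 4 in the first 50% of each list (15 KO-only, 11 WT-only, 57 shared) and to 2 with the nearest gene end. It was -6 within 10 kb and within 50 kb, and -8 with genes of every kind (20 KO-only). The median place difference over the 24 shared peaks, 3.86 points, ranged from 3.05 to 4.60. The 3.05 came from ranking among shared peaks only, where the median over all shared peaks near genes was 0.62 points. Fewer peaks enter by construction in the first 50% and within 10 kb, and noncoding genes take peaks when they compete. With 50% reciprocal overlap, the pairs with 81 bp in common at Klf2, 74 bp at S1pr1 and 87 bp at Ccr7 no longer count as shared. Each then gives a KO-only and a WT-only peak by construction. The cause of the other differences was not tested. A common width of 200 bp moved none of the counts by over 1.5 times.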

Other observations

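Noncoding genes of the RefSeq table lie nearer to many of these peaks than Klf2, S1pr1 or Ccr7. When they competed, the lncRNA gene Gm40124 took 5 KO and 5 WT peaks of S1pr1, and the lncRNA gene A930005H10Rik took 2 KO and 2 WT peaks. The lncRNA gene Gm32249 took 4 KO and 4 WT peaks of Ccr7, of which 1 KO and 2 WT peaks lay in its body. S1pr1 then had 7 shared peaks with 1 KO-only and 3 WT-only ones, Ccr7 had 2 with 1 and 2, and Klf2 2 shared peaks alone. In all of these the sign of KO-only minus WT-only peaks was as with protein-coding genes alone.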
